A study of Mus musculus with 30 samples.

Results

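Brain RNA of mice labelled Csa-/- was compared between 24 and 12 months of age, as far as a design with 1 library per age allows. The members are the 5 columns of the 24-month group and the 5 columns of the 12-month group, 10 of the 30 columns in the deposited count table, chosen by genotype and age. The series also holds Csa-/- brain at 45 days and wild-type brain at 45 days, 12 months and 24 months, with 5 columns each, and these 4 groups serve here as points of reference. Whole brains were frozen and pulverised, polyadenylated RNA was enriched, and every library was sequenced 5 times on a SOLiD instrument, per the labels. No group carries any other allele or any drug treatment in the labels. Strain, sex and the number of animals behind each library are not given in the sources used here.

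Csa is an older name of Ercc8, which encodes a subunit of the ubiquitin ligase that acts when RNA polymerase II stalls at a lesion in the transcribed strand. The gene serves the transcription-coupled branch of nucleotide excision repair. Its mutation can cause Cockayne syndrome, a disease of growth failure, white matter loss and early neurodegeneration. The brain depends on myelin made by oligodendrocytes and on the immune watch kept by microglia, and both are known to be affected in the disease. The series title points to inflammation, signalling between neurons, the matrix around cells, and the pathways of MAPK and PI3K-Akt.

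The 5 columns of each group differed by close to counting error for most genes and were summed as repeat runs of 1 library, so their spread is technical and says nothing about mice. For Csa-/- the chi-square between runs, divided by its degrees of freedom, had a median over genes of 0.955 at 12 months and 1.05 at 24 months, and 8.61% and 13.1% of genes had a chi-square p under 0.05. Counting intervals therefore understate even the technical error of some genes. The summed libraries held 14598535 counts at 12 months and 37712210 counts at 24 months, and the other 4 held 14762512 to 28723453. Levels are CPM, the count divided by the library size after trimmed-mean scaling, and a count of 3 corresponds to 0.203 CPM at 12 months and 0.0798 CPM at 24 months. Ercc8 (chromosome 13, 108158731 to 108195364, mm10) was at 11.3 to 13.5 CPM in the 3 wild-type libraries and at 13.0 to 13.8 CPM in the 3 libraries labelled Csa-/-. Where 3 values are given for a genotype below, they are those at 45 days, 12 months and 24 months, in this order. Gene-level counts thus do not verify the genotype labels, and directions below are those of the libraries labelled Csa-/-. All 18 astrocyte genes and all 22 oligodendrocyte genes of the lists used here were measured, and none of 14 retina and pineal genes.

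At 24 months, 243 genes were higher and 404 lower than at 12 months in Csa-/- brain. Among the higher genes were Gpnmb of activated microglia, and some interferon-induced genes, genes induced by glucocorticoids and genes of the olfactory bulb. Among the lower genes were 41 small nucleolar RNAs, and some pituitary and hypothalamic hormone genes, Hoxb genes, ribosomal protein genes and myelin genes. A gene was called when it reached 5 CPM in the higher library and the exact 95% interval of its fold, which covers counting error only, lay beyond 1.5-fold. By this rule 1.95% of 12447 genes were called higher and 3.25% lower, and the median log2 fold of all 12447 was 0.03. No p-value can be given with 1 library per age.

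**Figure D1:**
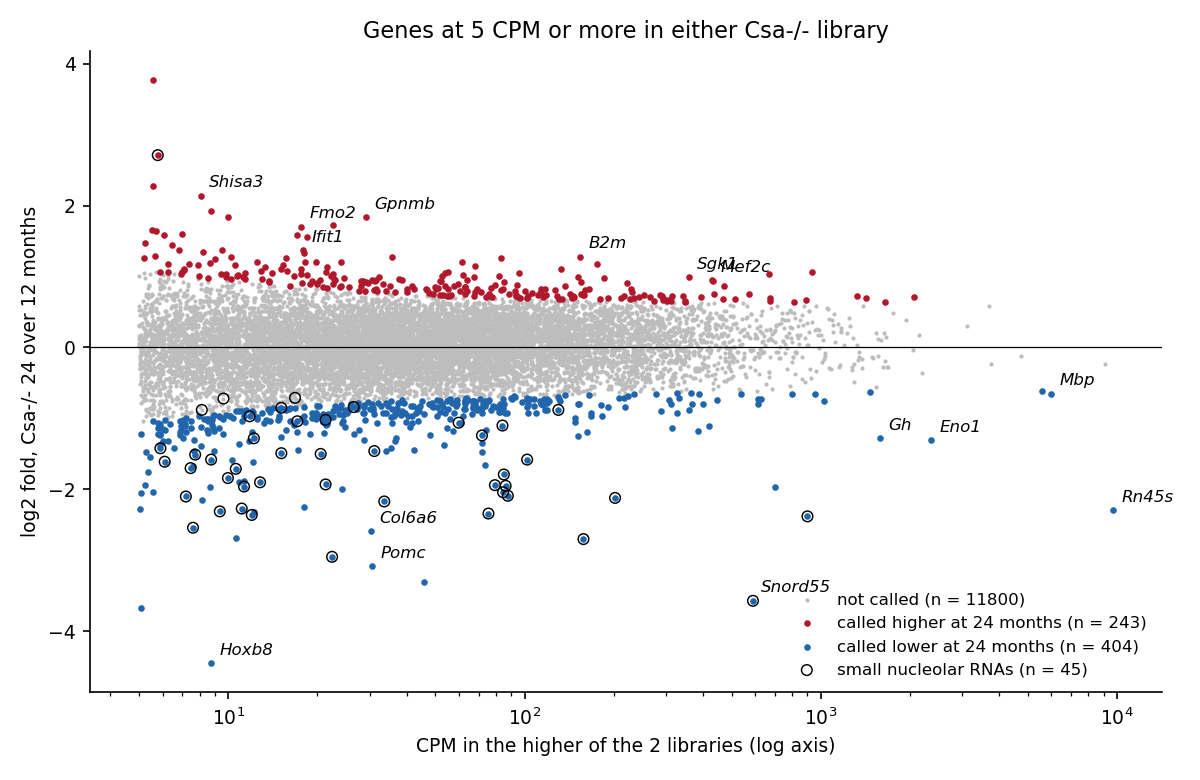
Each point is 1 of the genes that reached 5 CPM in either Csa-/- library, placed by its CPM in the higher library (log axis) and its log2 fold of 24 over 12 months; red and blue points are the 243 genes called higher and the 404 called lower, and black rings mark the 45 small nucleolar RNAs. Most rings lie among the strongest falls, and Rn45s, Snord49a and Snord55 are among the abundant transcripts with large falls.

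The same contrast in wild-type brain gave more calls and mostly the opposite sign. There, 8.42% of 12436 genes were higher and 10.0% lower at 24 months by the same rule. Of the 404 genes lower with age in Csa-/-, 202 were called higher and 1 lower in wild type. Of the 243 genes higher with age in Csa-/-, 76 were called lower and 8 higher in wild type. Across 12198 genes measured in both, the log2 folds of the 2 genotypes had a Pearson correlation of -0.56, a description across genes that are not independent replicates. The genotypes share no library in these contrasts, but each rests on 1 library per age, so a difference between genotypes and a difference between single libraries cannot be told apart.

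As a description, since calling a gene already places its 2 libraries apart, the 24-month library was the highest of all 6 in 140 of the 243 higher genes and the lowest of all 6 in 235 of the 404 lower genes. The 12-month library was the lowest of all 6 in 114 of the higher genes and the highest in 169 of the lower genes. Over all 12447 genes, the 24-month library was the highest in 16.5% and the lowest in 16.6%. The 12-month library was the lowest in 14.2% and the highest in 12.0% of them.

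The fold followed the base composition of the gene. In Csa-/- the median log2 fold went from 0.36 in the 10% of genes with the lowest GC content to -0.33 in the 10% with the highest, and in wild type from -0.53 to 0.32. By exonic length the medians ran from -0.16 in the shortest 10% of genes to 0.09 in the longest 10% in Csa-/-, and from 0.62 to -0.48 in wild type. With a smooth trend in both properties removed, 149 genes were called higher and 167 lower in Csa-/-, of which 84 and 126 were among the calls without the removal. Genes without an annotated length or under 300 bases have no such value, which alone takes 6 of the 243 and 49 of the 404 calls away, the small nucleolar RNAs among them; 237 and 355 could be compared. Across 12009 genes the correlation between the genotypes was then -0.45. For the genes named in the text, the value with the trend removed is given wherever it ends a call.

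**Figure D2:**
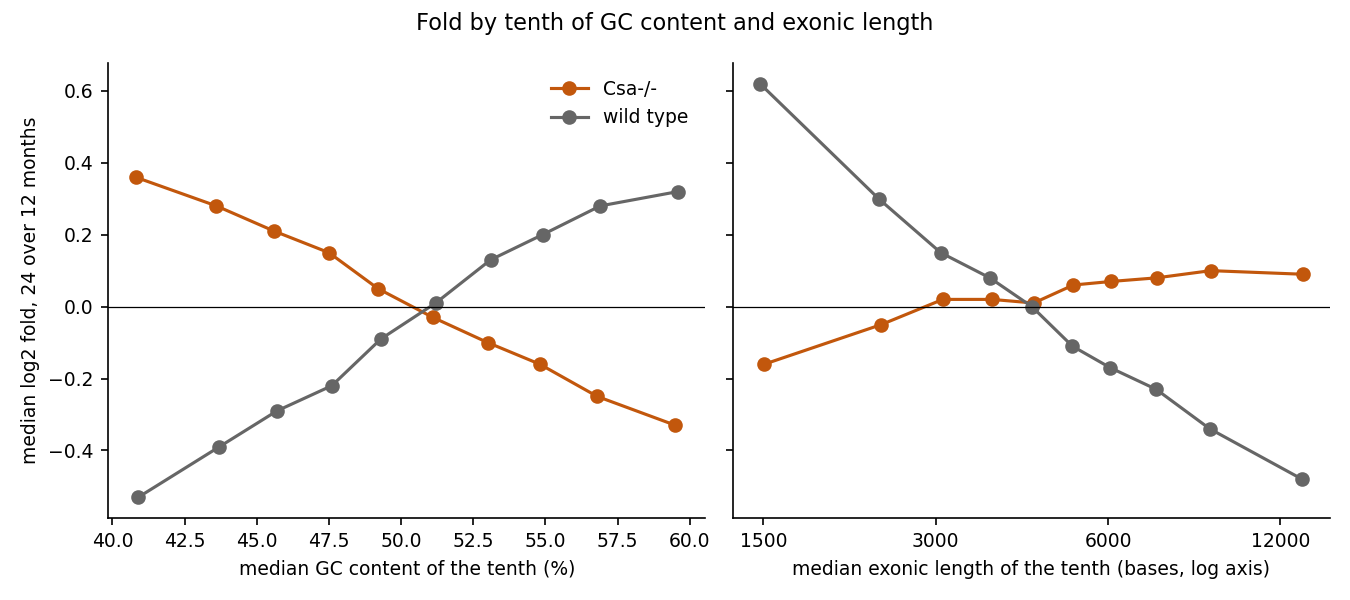
The median log2 fold of 24 over 12 months is plotted for 10 equal bins of genes ordered by GC content (left, percent) and by exonic length (right, bases, log axis), in Csa-/- (orange) and in wild type (grey). The 2 genotypes run in opposite directions, from 0.36 to -0.33 against -0.53 to 0.32 along GC content.

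Small nucleolar RNAs were the most uniform group to be lower at 24 months. These short RNAs are cut from introns of their host genes; those with C and D boxes guide ribose methylation of ribosomal RNA, and most carry no poly(A) tail. Of 131 in the table, 45 reached 5 CPM, 41 were called lower, 3 were not called, and Gm22496, which lies in Snhg14, was called higher. The call of Gm22496 rests on 1 run of the 24-month library at 25.5 CPM, with the other 4 at 0.402 to 0.712 CPM and those of the 12-month library at 0 to 1.57. The median log2 fold of the 45 was -1.70. The list was drawn up after the values had been seen, so these counts are a description. The minimum of 5 CPM applies to the higher library. Some, such as Snord92 and Snord16a, reached it only at 12 months, which favours a fall among the 45. Of the Snord genes with the largest falls, 4 are shown here from the GENCODE M21 transcripts (mm10), written as DNA from 5′ to 3′, because they carry some of the largest changes of this group; capitals mark the letters TGATG of a C box within the first 20 bases and CTGA of a D box within the last 20.
Snord92: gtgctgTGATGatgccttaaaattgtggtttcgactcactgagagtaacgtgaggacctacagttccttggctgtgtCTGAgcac
Snord71: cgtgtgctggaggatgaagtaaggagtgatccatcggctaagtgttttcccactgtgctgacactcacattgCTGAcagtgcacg
Snord16a: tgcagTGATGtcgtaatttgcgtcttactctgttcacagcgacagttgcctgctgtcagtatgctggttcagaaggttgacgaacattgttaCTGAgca
Snord49a: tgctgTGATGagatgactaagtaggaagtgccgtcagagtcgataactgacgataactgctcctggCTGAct
Both boxes were found by these letters in 31 of the 37 Snord genes called lower (83.8%), in 60 of 73 Snord genes of the annotation (82.2%) and in 0 of 36 Snora genes, which belong to the H/ACA class. The genes that were lower therefore hold the boxes about as often as Snord genes in general.

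Snord55 stood at 51.0, 53.4 and 167 CPM in wild type. In Csa-/- it stood at 149, 590 and 49.7 CPM, and its fold of 24 over 12 months was 0.0842 (95% counting interval 0.0801 to 0.0886). The 5 runs of the 12-month library lay between 535 and 653 CPM and those of the 24-month library between 42.8 and 56.8, with no overlap. Snord49a (chr11:62603450-62603521, plus strand) followed the same course, from 519 CPM at 45 days to 901 at 12 months and 173 at 24 months in Csa-/-, against 238, 217 and 568 CPM in wild type. Snord92 (chr17:71631281-71631365) was at 22.4 and then 2.90 CPM, Snord71 (chr8:109839295-109839379) at 158 and then 24.3 CPM, and Snord16a (chr9:64175423-64175521) at 7.60 and then 1.30 CPM. The peak thus lay in the Csa-/- 12-month library, which held the highest level of the 6 for 35 of the 45. This count too is favoured by the minimum of 5 CPM, which some reached only in that library. By the annotation, Snord92 lies in an intron of Wdr43, Snord71 in an intron of Ap1g1 and Snord49a in an intron of 2410006H16Rik, and Snord16a overlaps an exon of Rpl4.

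Their host genes were not lower as a group. Of the 45, 43 lie within a host gene, 24 of them wholly in introns, and reads of a host transcript over a small nucleolar RNA cannot be told apart from its own. Of 31 measured host genes, 1 was called lower, the ribosomal protein gene Rps12, and 1 higher, Rpl13a, and the median log2 fold of the hosts was 0.05. The host of Snord71, Ap1g1, went from 126 to 142 CPM (fold 1.13, 1.07 to 1.19), and that of Snord92, Wdr43, from 39.4 to 42.4 CPM (1.08, 0.978 to 1.19). Summed over the 45, the small nucleolar RNAs stood at 766, 766 and 1912 CPM in wild type and at 1956, 3296 and 821 CPM in Csa-/- at the 3 ages. The precursor of ribosomal RNA, Rn45s, made up 0.403%, 0.105% and 0.596% of counts in wild type and 0.379%, 0.977% and 0.197% in Csa-/-. Rn45s was named after its values were seen; neither it nor most small nucleolar RNAs are kept by enrichment for poly(A), and the part of that enrichment in these values was not tested. In wild type, 29 of the 45 were called higher at 24 months.

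**Figure D3:**
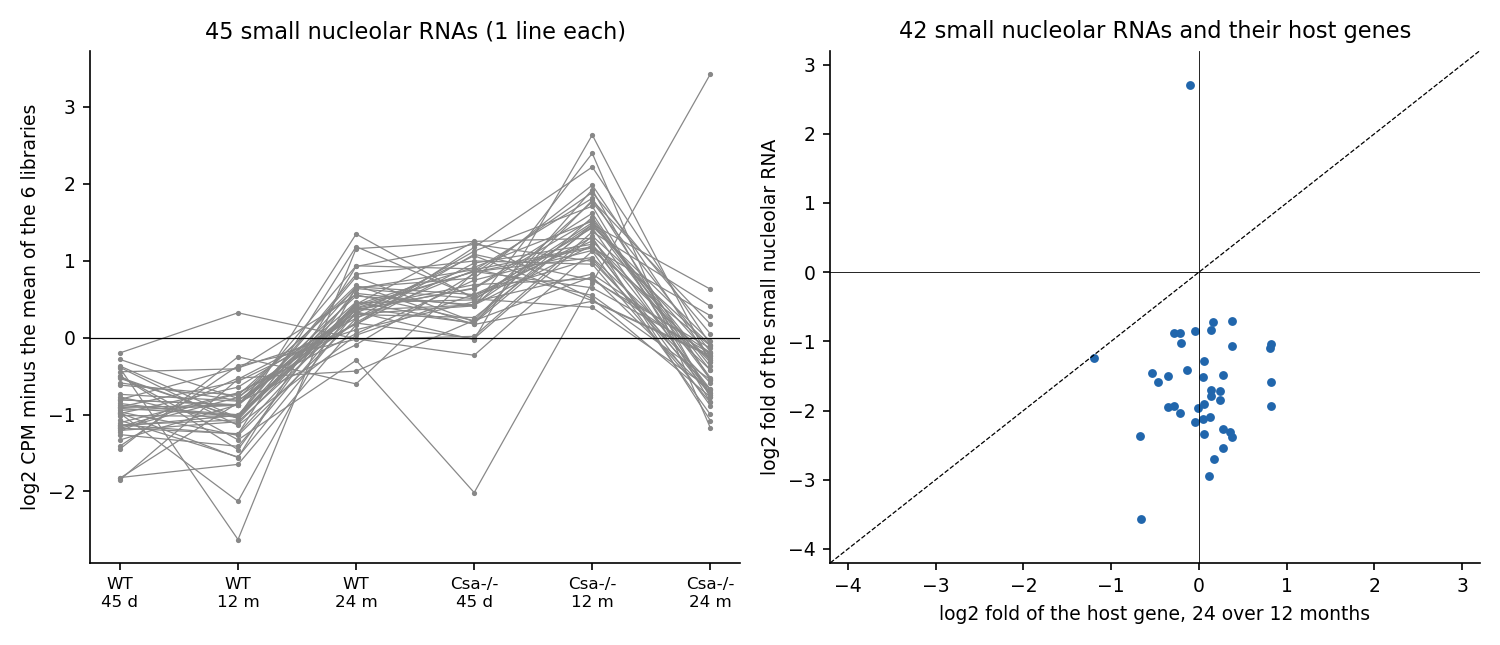
Left, the log2 CPM of each of the 45 small nucleolar RNAs in the 6 libraries, relative to its own mean over the libraries where it was counted; right, the log2 fold of 24 over 12 months in Csa-/- of small nucleolar RNAs against that of their host genes, with the line of equality dashed. In 35 of 45 lines the Csa-/- 12-month library is the highest, and most of the points on the right lie below the line, with host genes around 0.05 and small nucleolar RNAs around -1.70.

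Several interferon-induced genes were called higher at 24 months. Of 29 in the list, 21 were measured, and 20 of them had a fold above 1. Of the 21, 7 were called higher (33.3%, against 1.95% over all genes) and 0 lower. The median log2 fold was 0.63, against 0.03 over all genes. In all 7 the Csa-/- 24-month library was the highest of the 6, as it was in 57.6% of all genes called higher. Ifit1, which binds foreign RNA lacking cap methylation (chromosome 19, 34640871 to 34650009), stood at 2.94, 4.23 and 7.95 CPM in wild type and at 5.27, 6.92 and 17.9 CPM in Csa-/-. Its fold was 2.59 (2.10 to 3.23) in Csa-/- and 1.88 (1.45 to 2.46) in wild type. The level was thus higher at the later age in both genotypes. Lgals3bp, a secreted galectin-binding protein, went from 26.7 to 61.7 CPM (fold 2.31, 2.08 to 2.58), Oasl2, of the oligoadenylate synthetase family, from 9.83 to 21.6 CPM (2.19, 1.83 to 2.63), and Rsad2, the antiviral protein viperin, from 3.53 to 7.90 CPM (2.24, 1.66 to 3.07). With the length and GC trend removed, 5 genes of the list were called and Rsad2 was not (log2 0.89), and the median was 0.45. In wild type the list's median was 0.63 as well, with 5 genes called higher.

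Promoters of these genes were searched for the interferon-stimulated response element, the site bound by STAT and IRF factors, as GAAANNGAAA on either strand. The search was chosen after the values were seen. The list was made of genes that interferon induces, so a high share is built into it and says nothing about the change with age. The window, from RefSeq on GRCm38.p6, runs from 250 bases before to 50 after the start of the gene. The letters were in 5 of the 7 called genes and in 13 of the 23 list genes with a window (56.5%), against 3.99% of 27025 genes. The 150 bases before the start of Ifit1 (chr19:34640739-34640888, plus strand) and Rsad2 (chr12:26456453-26456602, minus strand) are shown as examples, 5′ to 3′ on the strand of the gene, with the match in capitals; in both it lies on the opposite strand and so reads as the reverse complement.
Ifit1: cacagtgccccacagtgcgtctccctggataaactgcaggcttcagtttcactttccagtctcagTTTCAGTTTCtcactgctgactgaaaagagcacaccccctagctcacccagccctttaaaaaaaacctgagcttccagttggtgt
Rsad2: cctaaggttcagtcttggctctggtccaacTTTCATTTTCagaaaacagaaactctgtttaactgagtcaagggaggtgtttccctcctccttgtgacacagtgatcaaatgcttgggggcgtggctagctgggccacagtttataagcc
The match begins 85 bases before the start in Ifit1 and 120 bases before it in Rsad2.

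Genes of antigen presentation, many of which interferon also induces, gave fewer calls. Of 14 measured, 2 were called higher (14.3%, against 1.95% over all genes) and 0 lower, and the median was 0.03. B2m, the light chain of class I molecules, stood at 39.3, 55.7 and 73.5 CPM in wild type and at 98.8, 63.6 and 154 CPM in Csa-/- (fold 2.42, 2.26 to 2.60). H2-Q4, a class I heavy chain that shares sequence with its neighbours and may exchange reads with them, went from 3.26 to 7.37 CPM; its call was lost without 1 of the 12-month runs (log2 0.98). In wild type 8 of 12 measured genes of this list were called higher (median 1.17).

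Of microglial genes, Gpnmb had the largest fold in Csa-/-. Gpnmb encodes a transmembrane glycoprotein of lipid-laden and disease-associated microglia (chromosome 6, 49036546 to 49070929). It stood at 0.665, 2.57 and 5.83 CPM in wild type and at 1.40, 8.14 and 29.2 CPM in Csa-/-. The fold of 24 over 12 months was 3.59 (2.97 to 4.37) in Csa-/- and 2.27 (1.64 to 3.19) in wild type, so the level was higher at the later age in both, and the 5 runs at 24 months (26.9 to 32.2 CPM) lay above those at 12 months (6.86 to 9.41). It was the only one called of 20 measured genes of activated microglia, whose median was 0.33. In a bulk sample, more cells of a type and more RNA per cell cannot be told apart.

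Homeostatic microglial genes split, with 2 of 16 called higher (12.5%) and 1 lower (6.25%), against 1.95% and 3.25% over all genes. Gpr34, a lysophosphatidylserine receptor, went from 6.31 to 18.4 CPM (fold 2.92, 2.35 to 3.67) and P2ry12, the ADP receptor of resting microglia, from 19.3 to 37.7 CPM (1.96, 1.72 to 2.23). Neither 24-month level was the highest of the 6 libraries. Gpr34 was at 20.2 CPM in Csa-/- at 45 days. P2ry12 was at 38.3 CPM in wild type at 12 months, which lies within its 24-month runs in Csa-/- (35.9 to 40.9 CPM). In Csa-/- at 45 days P2ry12 was at 32.9 CPM. Fcrls, a microglial Fc receptor-like gene, went the other way, from 19.1 to 10.1 CPM (0.529, 0.452 to 0.620). P2ry12 was not called with the trend removed (log2 0.59).

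Of 24 measured genes of inflammation, 1 was called higher and 2 lower, with a median of 0.35. Tlr7, a receptor for single-stranded RNA, went from 3.80 to 9.02 CPM (fold 2.38, 1.79 to 3.21; not called with the trend removed, log2 0.88). Lcn2, an iron-binding protein of the acute phase and of reactive astrocytes, went from 8.68 to 2.24 CPM (0.258, 0.193 to 0.342), and Nfkb2, an NF-kappaB subunit, from 6.58 to 2.48 CPM (0.376, 0.280 to 0.505). For both the Csa-/- 12-month library was the highest of the 6, with 0.268 to 1.35 CPM of Lcn2 in wild type. Osmr, the oncostatin M receptor and a gene of reactive astrocytes, went from 6.99 to 15.1 CPM (2.16, 1.75 to 2.69). Serping1, the inhibitor of complement C1, went from 16.8 to 29.0 CPM (1.72, 1.5 to 1.99), at the edge of the rule, and was not called with DESeq2 size factors (log2 0.78) or library totals (0.77). Cebpd and Slc11a1 are outside the gene lists and were named for the size of their folds. Cebpd, a transcription factor of the acute phase, went from 2.31 to 6.97 CPM (3.02, 2.11 to 4.46). Slc11a1, a metal transporter of phagosomes, went from 1.76 to 5.54 CPM (3.14, 2.08 to 4.92). It had 26 counts at 12 months, with runs from 0.314 to 4.1 CPM.

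**Figure D4:**
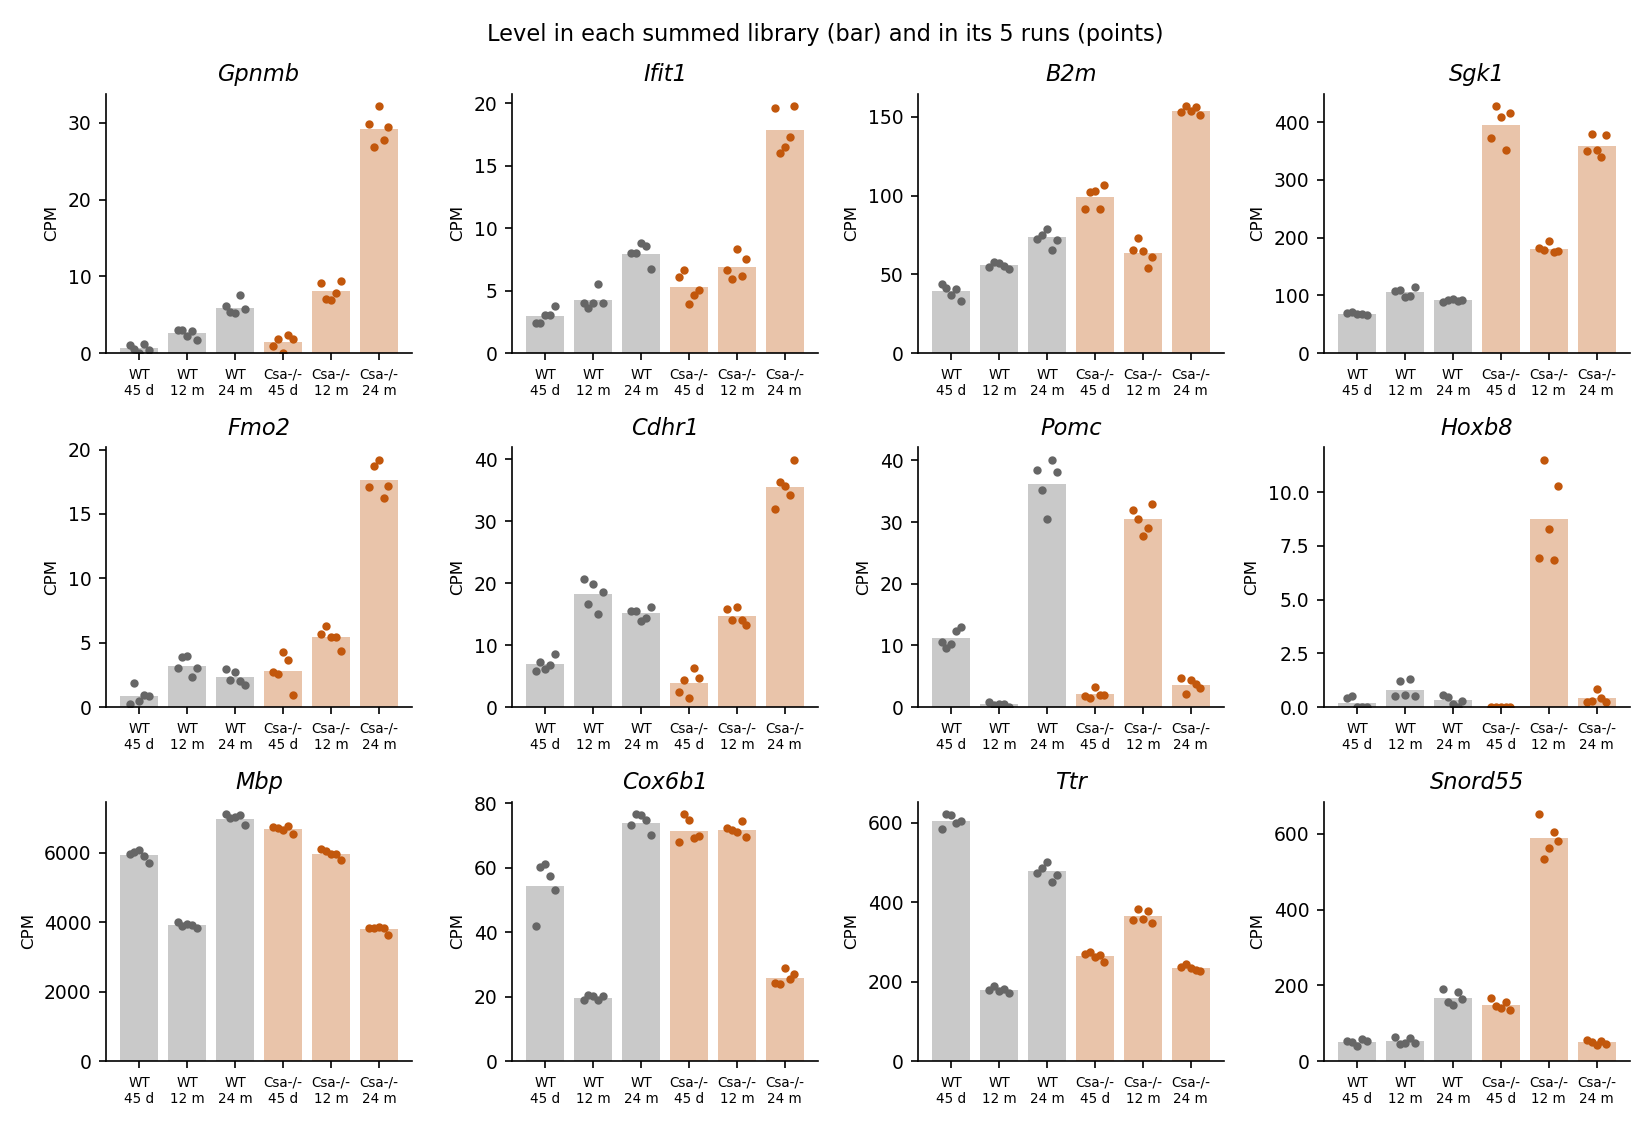
CPM of 12 genes in the 6 summed libraries (bars, axes from 0) and in their 5 runs (points), wild type in grey and Csa-/- in orange; the runs are repeat sequencing of 1 library. Gpnmb, Ifit1, B2m, Fmo2 and Cdhr1 are highest in the Csa-/- 24-month library, and Hoxb8 and Snord55 stand out in the Csa-/- 12-month library, at 8.75 and 590 CPM.

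Several genes induced by glucocorticoids, the stress hormones of the adrenal cortex, were called higher at 24 months. Of 22 measured, 19 had a fold above 1, and 4 were called higher (18.2%, against 1.95% over all genes) and 0 lower. The median was 0.36 (0.46 with the trend removed, with 6 called). Sgk1, a kinase that acts on ion channels (chromosome 10, 21882184 to 21999903), stood at 67.9, 106 and 91.1 CPM in wild type and at 394, 181 and 359 CPM in Csa-/-. Its fold was 1.99 (1.91 to 2.07) in Csa-/- and 0.863 (0.814 to 0.915) in wild type. The 24-month level thus stood near that at 45 days, and the 12-month library was the low one of the 3. Hif3a had the same shape in Csa-/-, at 19.1, 10.4 and 24.1 CPM (fold 2.31, 1.94 to 2.75), against 3.70, 6.58 and 6.60 CPM in wild type. Dusp1, a phosphatase that switches MAP kinases off, went from 26.0 to 53.8 CPM (2.07, 1.86 to 2.32), whereas in wild type it went from 38.6 to 16.7 CPM. Klf9, a transcription factor induced by the same hormones, was called only just, at 1.56 (1.5 to 1.62), and not with the trend removed (log2 0.53), DESeq2 size factors (0.64) or library totals (0.62).

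Immediate early genes, the first genes that neurons transcribe after activity, leaned to neither side. Of 31 measured, 1 was called higher (Dusp1) and 1 lower, with a median of 0.08, whereas 14 of 29 were called lower in wild type (median -0.81). The called one, Arc, which acts at active synapses, stood at 76.2, 183 and 95.3 CPM in wild type and at 75.5, 219 and 122 CPM in Csa-/-, so it peaked at 12 months in both. Its fold was 0.557 (0.532 to 0.583) in Csa-/- and was not called with the trend removed (log2 -0.54). The cyclic AMP response element, TGACGTCA on either strand, was in the promoter windows of 3 of 28 list genes (10.7%, against 2.03% of all genes), the serum response element core in 2 (7.14% against 1.81%), and the interferon element in 4 (14.3% against 3.99%). These shares describe the list, not the change between ages. Of 19 clock genes only Ciart, a repressor of the clock, was called, at 14.8 and then 28.1 CPM (1.90, 1.64 to 2.21). Fmo2, a flavin monooxygenase of the antioxidant and detoxification list, went from 5.43 to 17.6 CPM (3.25, 2.58 to 4.15) and was at 0.855 to 3.21 CPM in wild type.

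Genes that mark brain regions and the pituitary moved between the libraries. Of 10 measured pituitary genes, 5 were called lower and 0 higher at 24 months in Csa-/- (median -0.84). Pomc, the precursor of ACTH and melanocortins, stood at 11.2, 0.428 and 36.2 CPM in wild type and at 2.07, 30.5 and 3.62 CPM in Csa-/- at the 3 ages (fold 0.119, 0.0972 to 0.144). Gh, growth hormone, stood at 616, 173 and 1705 CPM in wild type and at 220, 1586 and 652 CPM in Csa-/- (0.411, 0.404 to 0.419). Both were highest in wild type at 24 months and in Csa-/- at 12 months, with no order by age or genotype. Lhb, the beta chain of luteinizing hormone, was at 5.02 and then 1.04 CPM. Summed over the list, the level was 1026, 564 and 2372 CPM in wild type and 526, 2322 and 1174 CPM in Csa-/-.

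Of 9 measured hypothalamic neuropeptide genes, 3 were called lower (33.3%, against 3.25% over all genes) and 0 higher. The median changed sign with the trend removed (-0.15 and then 0.06). Pmch, melanin-concentrating hormone, stood at 20.6, 41.6 and 53.2 CPM in wild type and at 49.0, 24.2 and 6.04 CPM in Csa-/- (fold 0.25, 0.210 to 0.296), the lowest of the 6. Cartpt, a peptide that curbs feeding, went from 41.2 to 19.0 CPM, and Trh, thyrotropin-releasing hormone, from 14.8 to 7.45 CPM (not called with the trend removed, log2 -0.76). Pomc is made in the arcuate nucleus as well as in the pituitary. Between 12 and 24 months in Csa-/- both lists were lower in sum, but between 45 days and 12 months they moved apart. The hypothalamic list summed to 561, 433 and 385 CPM in Csa-/- at the 3 ages, and the pituitary list to 526, 2322 and 1174 CPM. In wild type the sums were 446, 460 and 645 CPM against 1026, 564 and 2372 CPM. The part of attached pituitary in the hypothalamic values was not tested.

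Hoxb8, Hoxb6 and Hoxb5, neighbouring genes among those with large falls, were each highest in the Csa-/- 12-month library; other Hox genes were not tallied. Hoxb8 (chromosome 11, 96281905 to 96285315) stood at 0.190, 0.803 and 0.337 CPM in wild type, and in Csa-/- it had 0 counts at 45 days, which allows up to 0.2 CPM, and stood at 8.75 CPM at 12 months and at 0.399 CPM at 24 months (fold 0.0456, 0.0248 to 0.0781). Its neighbours followed: Hoxb6 went from 5.09 to 0.399 CPM (0.0785, 0.0419 to 0.138) and Hoxb5 from 7.60 to 2.40 CPM (0.315, 0.236 to 0.420). These genes pattern the hindbrain and spinal cord and are silent in the forebrain. Of 19 measured genes of thalamus and brainstem, 3 were called lower (15.8%) and 1 higher (5.26%), against 3.25% and 1.95% over all genes. The higher one was Tph2, the enzyme of serotonin synthesis in the raphe, at 12.4 and then 24.5 CPM (1.97, 1.68 to 2.32; not called with the trend removed, log2 0.80).

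Several genes of the olfactory bulb were called higher at 24 months. Of 12 measured, 6 were called higher and 1 lower (median 0.66, or 0.61 with the trend removed and 5 called higher). Over all genes, 1.95% were called higher and 3.25% lower. The lower one was Trh, which is also on the hypothalamic list above. In wild type, 4 of 12 measured genes of this list were called higher and 1 lower, where 8.42% and 10.0% of all genes were. The wild-type median was 0.19. Cdhr1, a cadherin of mitral cells, stood at 6.93, 18.2 and 15.2 CPM in wild type and at 3.87, 14.7 and 35.6 CPM in Csa-/- (fold 2.43, 2.10 to 2.82). Omp, the marker of olfactory sensory axons, went from 4.21 to 10.2 CPM (2.43, 1.85 to 3.23), and the transcription factors Sp8, Eomes and Dlx1 had folds of 2.31, 2.12 and 1.88. Frmd7, a gene outside the list, was at 5.70 and then 17.0 CPM (2.99, 2.37 to 3.79). Summed over the list the level was 438, 520 and 581 CPM in wild type and 541, 484 and 629 CPM in Csa-/-. Whether the brains were cut alike at the bulb, hypothalamus and medulla is not given in the sources used here, and a change of expression and a change of tissue share cannot be told apart for these regions.

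Markers of cortex and hippocampus leaned up, with 21 of 22 measured genes above a fold of 1 but 1 called (median 0.25). That gene was Mef2c, a transcription factor of excitatory neurons, at 315, 506 and 216 CPM in wild type and 263, 222 and 429 CPM in Csa-/- (fold 1.93, 1.86 to 2.00). In wild type 9 of 23 genes of this list were called lower and 0 higher (median -0.49). Striatal and cerebellar genes had medians of 0.01 and 0.04. Of 6 measured ependymal cilia genes, 2 were called lower (33.3%, against 3.25% over all genes). Among them was Foxj1, the master regulator of motile cilia, at 19.2 and then 9.63 CPM (0.502, 0.428 to 0.588). It was not called with the trend removed (log2 -0.65). Ttr, the transthyretin of the choroid plexus, went from 364 to 234 CPM (0.642, 0.621 to 0.665), against 179 and 478 CPM in wild type.

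Neuronal signalling genes gave few calls. Of 23 measured genes of GABA signalling, 18 had a fold above 1 and 2 were called higher (median 0.39, or 0.22 with the trend removed), against 12 called lower in wild type (median -0.72, or -0.30 with the trend removed). Gad1, which makes GABA, stood at 536, 849 and 515 CPM in wild type and at 469, 559 and 891 CPM in Csa-/- (fold 1.59, 1.56 to 1.63). With the trend removed, 1 gene of the list was called. Of 32 genes of glutamate signalling, 2 were called lower: Shank3, a scaffold of the postsynaptic density, at 289 and then 156 CPM (0.540, 0.519 to 0.562), and Grm4, a metabotropic receptor, at 102 and then 62.4 CPM (0.609, 0.571 to 0.651). Neither was called with the trend removed (log2 -0.49 and -0.38). Htr3a, the ionotropic serotonin receptor, was at 3.66 and then 9.53 CPM (2.60, 1.95 to 3.53), 1 of 2 called higher among 33 monoamine and acetylcholine genes, with 1 lower.

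**Figure D5:**
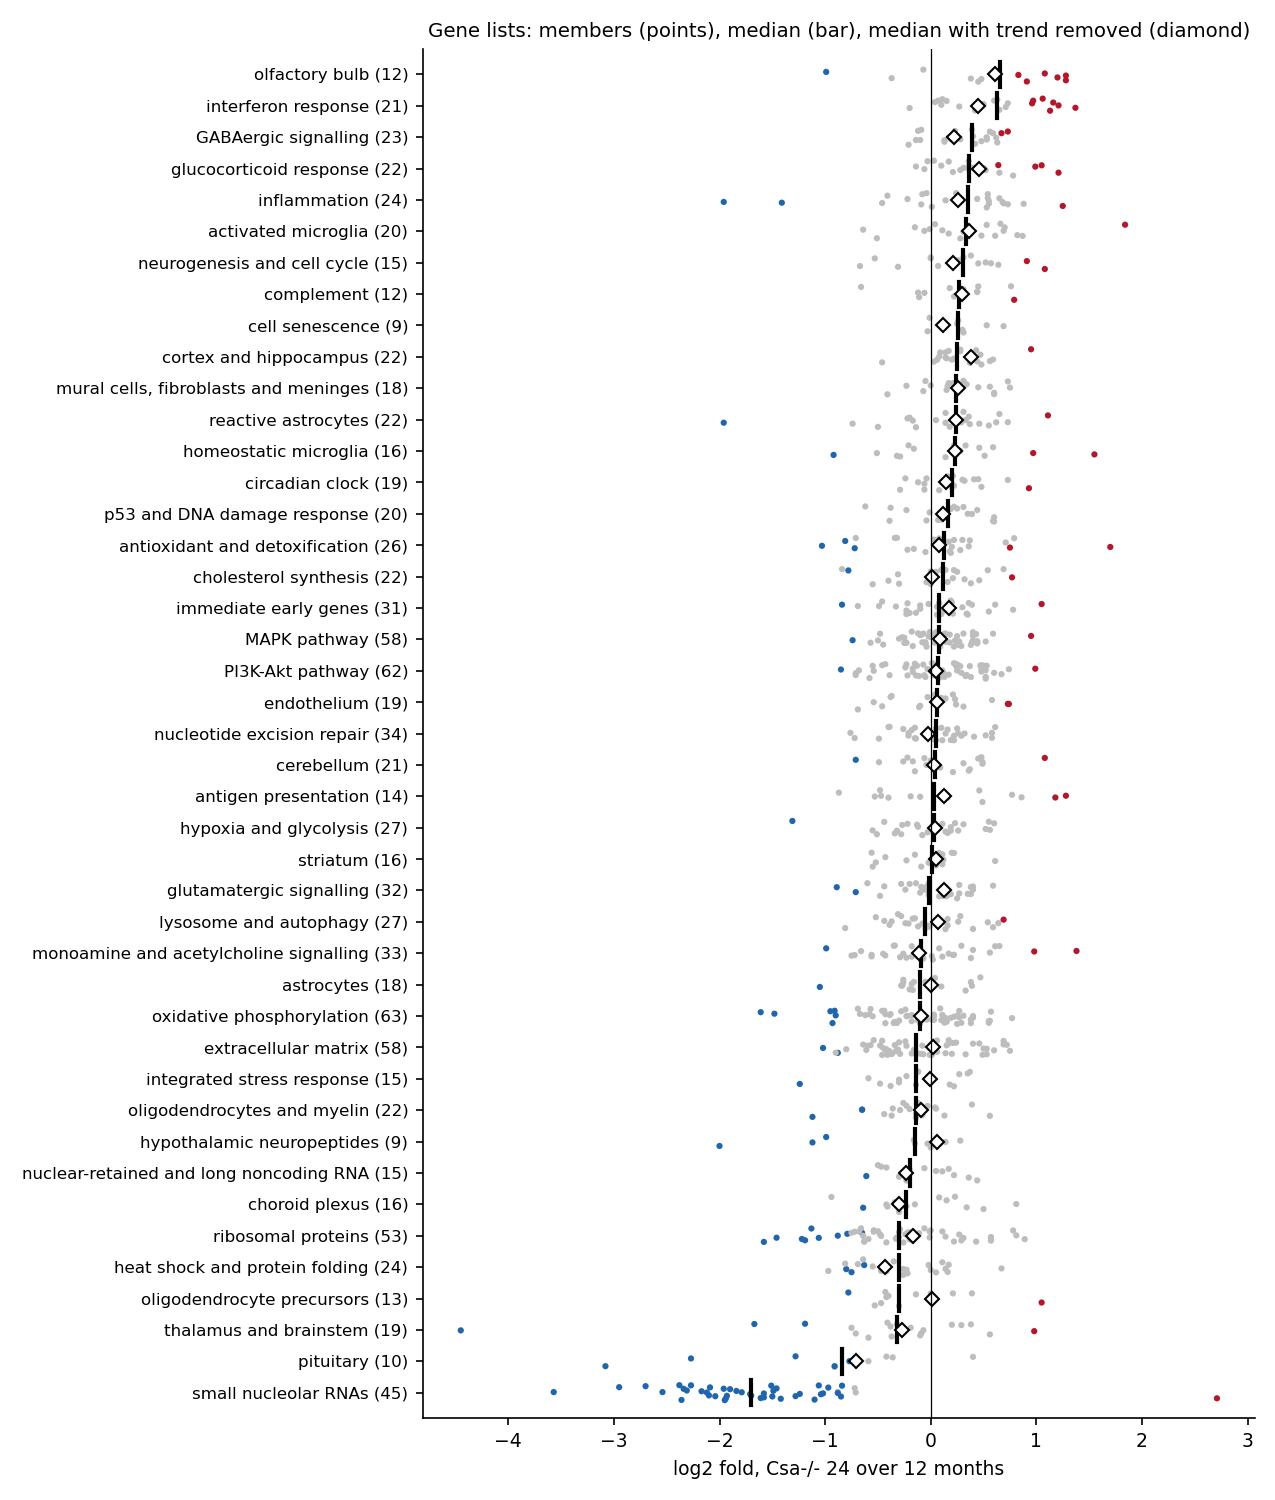
Each row is a gene list with at least 9 measured members (number in brackets), ordered by its median; points are members by their log2 fold of 24 over 12 months in Csa-/-, red if called higher, blue if called lower and grey otherwise, the bar is the median and the diamond the median with the length and GC trend removed. Olfactory bulb (0.66) and interferon response (0.63) stand at the top, and pituitary (-0.84) and small nucleolar RNAs (-1.70) at the bottom.

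Ribosomal protein genes leaned down, opposite to wild type, with 14 above a fold of 1 and 39 below. Of 53 measured ribosomal protein genes, 9 were called lower (17.0%, against 3.25% over all genes) and 0 higher in Csa-/-. The median was -0.30, or -0.17 with the trend removed. In wild type 29 of 55 were called higher (median 0.82, or 0.27 with the trend removed), where 8.42% of all genes were. Rpl18 stood at 26.0, 11.4 and 31.9 CPM in wild type and at 24.6, 34.0 and 12.4 CPM in Csa-/- (fold 0.364, 0.320 to 0.414). Rpl36 went from 10.3 to 3.46 CPM and Rps16 from 18.9 to 8.09 CPM in Csa-/-. Ribosomal protein genes have many processed copies in the genome, and the way reads were shared among them is not given in the sources used here.

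Of 63 measured genes of oxidative phosphorylation, 29 had a fold above 1 and 34 below, where 52.6% of all genes lay above 1. Of these 63, 6 were called lower (9.52%, against 3.25% over all genes) and 0 higher (median -0.10). In wild type 33 were called higher (median 0.67, or 0.30 with the trend removed). Cox6b1, a subunit of cytochrome c oxidase (chromosome 7, 30616861 to 30626151), stood at 54.3, 19.7 and 74.0 CPM in wild type and at 71.5, 71.8 and 25.8 CPM in Csa-/- (fold 0.359, 0.329 to 0.393). The low libraries were wild type at 12 months and Csa-/- at 24 months. Ndufb4, a subunit of complex I, went from 12.1 to 3.97 CPM (0.327, 0.261 to 0.408). Of glycolysis and hypoxia genes only Eno1, the enolase, was called among 27, at 2361 and then 952 CPM (0.403, 0.397 to 0.409). Its runs spread wider than that interval, from 2128 to 2583 CPM at 12 months and from 863 to 1083 CPM at 24 months, without overlap. Eno1 too has copies in the genome that can share its reads.

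Of 24 measured chaperone genes, 3 were called lower (12.5%, against 3.25% over all genes) and 0 higher (median -0.30, and -0.43 with the trend removed). They were Calr, the calcium-binding chaperone of the endoplasmic reticulum, at 311 and then 178 CPM (0.574, 0.553 to 0.596), Hsp90ab1 at 1470 and then 949 CPM (0.646, 0.635 to 0.657), and Cryab, a small heat shock protein of glia, at 132 and then 78.7 CPM (0.596, 0.563 to 0.632). Hsp90ab1 and Cryab were not called with the trend removed (log2 -0.61 and -0.58).

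Some myelin genes were lower at 24 months. Of 22 measured oligodendrocyte and myelin genes, 17 had a fold below 1 (median -0.14). Of the 22, 3 were called lower (13.6%, against 3.25% over all genes) and 0 higher. In all 3 the Csa-/- 24-month library was the lowest of the 6, as it was in 58.2% of all genes called lower. Mbp, a main protein of compact myelin, stood at 5927, 3916 and 6979 CPM in wild type and at 6677, 5970 and 3799 CPM in Csa-/- (fold 0.636, 0.631 to 0.642). Mag, which holds myelin to the axon, stood at 499, 291 and 439 CPM in wild type and at 425, 387 and 247 CPM in Csa-/- (0.639, 0.618 to 0.661). In Csa-/- the levels of Mbp and Mag were thus lower at each later age, but wild type at 12 months was nearly as low as Csa-/- at 24 months. With the trend removed none of the 3 was called (log2 -0.45 for Mbp and -0.40 for Mag).

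The matrix and kinase pathways of the series title gave few calls. Of 58 measured extracellular matrix genes, 2 were called lower and 0 higher (median -0.14, and 0.02 with the trend removed). They were Mmp15, a membrane metalloproteinase, at 28.9 and then 14.2 CPM (0.492, 0.432 to 0.560), and Col4a2, a collagen of basement membranes, at 69.0 and then 37.5 CPM (0.544, 0.501 to 0.590). Of 58 MAPK genes, 1 was called higher, Mef2c, and 1 lower, Map2k2, a MAP kinase kinase, at 64.4 and then 38.5 CPM (0.598, 0.551 to 0.650). Of 62 PI3K-Akt genes, 1 was called higher, Sgk1, and 1 lower, Itgb4, an integrin chain, at 25.7 and then 14.3 CPM (0.556, 0.487 to 0.636). The share called in each direction was 1.72% for MAPK and 1.61% for PI3K-Akt genes, and 3.45% lower for matrix genes, against 1.95% higher and 3.25% lower over all genes. For the other subjects of the title the shares were 4.17% higher and 8.33% lower for inflammation, 8.7% higher for GABA and 6.25% lower for glutamate signalling, on 1 or 2 genes each. Mmp15, Col4a2, Map2k2 and Itgb4 were not called with the trend removed (log2 -0.70, -0.52, -0.43 and -0.51).

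DNA repair and damage genes gave no call. None of 34 measured nucleotide excision repair genes passed in either direction (median 0.05), and Ercc8 itself had a fold of 1.04 (0.878 to 1.23). None of 20 genes of the p53 and DNA damage response passed (median 0.16), nor any of 9 genes of cell senescence (median 0.26). These counts do not show that the genes were unchanged, since a gene below 1.5-fold cannot be called.

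Among the largest remaining folds, Shisa3, an inhibitor of Wnt and FGF signalling, went from 1.83 to 8.09 CPM (fold 4.42, 2.98 to 6.82) and Sec14l3, a lipid-binding protein, from 2.31 to 8.76 CPM (3.80, 2.66 to 5.58), with 1.09 to 3.69 and 1.23 to 3.48 CPM in wild type. Irak1bp1 went from 6.85 to 22.6 CPM (3.31, 2.69 to 4.11) but stood at 29.1 CPM in Csa-/- at 45 days. Ccl28, a chemokine of mucosal tissue, went from 2.03 to 6.07 CPM (2.98, 2.03 to 4.52). Tuba1c, an alpha-tubulin with near-identical relatives, was called at 2.76 on the strength of 1 run, as the runs at 24 months lay between 1.57 and 13.6 CPM, and without that run its log2 fold was 0.58 and was not called. AF357359 stood at 4.89, 7.76 and 2.73 CPM in wild type and at 14.0, 2.78 and 9.95 CPM in Csa-/- (fold 3.58, 2.59 to 5.07), so that it was called higher in Csa-/- and lower in wild type. Among lower genes, Col6a6, a collagen VI chain, went from 30.4 to 5.06 CPM (0.166, 0.140 to 0.198) and was at 5.46 to 8.31 CPM in the other 4 libraries. AF357355 went from 45.6 to 4.63 CPM (0.102, 0.0855 to 0.120) and the microRNA gene Mir6236 from 10.6 to 1.65 CPM (0.156, 0.114 to 0.211).

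An age difference shared by both genotypes could be tested, and 1 gene passed. In edgeR's quasi-likelihood test of 24 against 12 months with age and genotype in the model on all 6 libraries, 1 of 16560 genes had a Benjamini-Hochberg adjusted p under 0.05 (0.00604%), and 163 had an unadjusted p under 0.05, of which 134 were higher. The gene was Bpifa1, a secreted protein of airway epithelium, with 0 counts in wild type at 12 months, which allows up to 0.161 CPM, at 4.51 CPM in wild type at 24 months, and at 0.543 and 3.25 CPM in Csa-/- (edgeR log2 fold change 3.96 ± 0.77, SE, 2 libraries per age, adjusted p = 0.0297). It was named after its values were seen and lies below 5 CPM in both Csa-/- libraries. DESeq2 called 0 genes, with 85 at an unadjusted p under 0.05. The residual of these tests mixes the spread between libraries with the difference between genotypes in their course over age, and cannot separate them. It is large where the genotypes moved in opposite directions, so these counts do not show that few genes changed with age. The edgeR count was 14 without the wild-type 24-month library, 26 without the Csa-/- 24-month library, 5 without the Csa-/- 12-month library and 0 without the wild-type 12-month library. For Gpnmb the test gave a log2 fold change of 1.54 ± 0.43 (SE, edgeR adjusted p = 1), for Ifit1 1.14 ± 0.42 and for Hoxb8 -3.23 ± 0.72 (adjusted p = 0.212), with both genotypes in the same direction for all 3.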

How the data were processed

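The deposited table holds counts per gene as whole numbers, for 25239 genes in 30 columns, made by the authors, per the file headers and labels. The submitters' processing notes name HISAT2 2.2.1, Subread 2.0.1, Trimmomatic 0.3.9, SAMtools and the build mm10, without their roles; the annotation is not given in the sources used here. Groups follow the labels. Runs were to be summed if their chi-square, per degree of freedom, had a median under 2 or the variation between runs under 0.05. Libraries were TMM-scaled with edgeR 4.0.16 in R 4.3.3. Folds carry exact Clopper-Pearson intervals at 95% (SciPy 1.17.1), for counting error only. Exonic length and GC content came from GENCODE M21 (24370 symbols matched); a natural cubic spline in both, over genes of at least 300 bases, gave the trend. The age test used edgeR quasi-likelihood with Benjamini-Hochberg adjustment, 2 residual degrees of freedom, and rests on spread pooled over genes.

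Members and gene lists (48) were chosen with earlier results of these data known. Named genes were Ercc8, Sgk1, the 12 largest called folds in each direction without identifier-only models and pseudogenes, up to 4 called members of each list per direction, and genes passing the age test at a mean of 5 CPM; part is left out of the text. Alternatives were other scalings, minimums, a 2-fold bound, thinning, the trend removed, runs as replicates, and each run or library left out. A few results are not reported here.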

Additional observations from a re-analysis of the deposited data

Results flagged for a closer look

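Of 172 sets of 5 runs examined for the named genes, 11 held a run that stood apart from the other 4, where chance alone gives about 1 in 20. Of these, 10 were in the Csa-/- 24-month library and 1, of Lhfpl3 at 57.0 CPM, in the 12-month library. The run of Tuba1c was at 13.6 CPM, with the lowest run at 1.57, and the call of that gene rests on it. The other runs were small departures next to the fold of the gene, with Gpr34 at 22.6 CPM, Fcrls at 8.79, Hoxb8 at 0.854, Dlx1 at 19.9, Mbp at 3639, Gad1 at 861, Map2k2 at 42.8, AF357359 at 11.4 and Gclc at 116 CPM.

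Of 85 named genes, 30 were called in opposite directions in Csa-/- and wild type between 12 and 24 months. This is not particular to the named genes, which were chosen largely from the calls in Csa-/-. Over all calls, 202 of the 404 lower genes and 76 of the 243 higher genes were called the other way in wild type. The difference was not tested, since it has no residual with 1 library per group. The values below are the log2 fold in Csa-/- minus that in wild type. Among small RNAs it was -5.22 for Snord55, -4.04 for Snord71, -3.77 for Snord49a and -4.87 for AF357355. Hormone genes gave -9.48 for Pomc, -4.58 for Gh, -2.46 for Cartpt and -2.67 for Trh. Ventricular genes gave -2.05 for Ttr and -2.08 for Foxj1. For translation and respiration the values were -3.38 for Cox6b1, -3.25 for Ndufb4, -2.54 for Rpl36, -2.94 for Rpl18 and -3.2 for Rps16. Cryab gave -1.54, Mbp -1.49, Map2k2 -1.44, Ntsr2 -1.9, Gsta4 -2.81 and Atf5 -2.54. Genes higher with age in Csa-/- and lower in wild type were P2ry12 at 2.08, Osmr at 2.2, Dusp1 at 2.26, Mef2c at 2.18, Gad1 at 1.39, Lhfpl3 at 2.0, Slco1a4 at 1.74, AF357359 at 3.35 and Ccl28 at 4.42.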

How the results depend on the processing

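The counts of 243 higher and 404 lower genes were 227 and 415 with DESeq2 size factors and 210 and 446 with library totals. A minimum of 20 CPM left 264 lower, a bound of 2-fold 25 higher and 82 lower, and removal of the trend, which also leaves out genes under 300 bases or without annotation (6 and 49 of the calls), 149 and 167. With single runs left out, the counts ran from 204 to 271 higher and from 364 to 414 lower. Without small nucleolar RNAs, an alternative chosen after seeing the data, they were 236 and 368. With the 5 runs of each library as replicates, edgeR beyond 1.5-fold called 144 higher without a replicate block and 160 higher with the replicate block; DESeq2 called 59 higher and 200 lower. Over genes, the departures of same-numbered runs from their library means correlated weakly between the 2 Csa-/- libraries, at 0.0317 to 0.0716. This does not exclude an effect of the run number on single genes. For Eno1, run 1 was the highest in both libraries, at 2583 CPM at 12 months and 1083 CPM at 24 months. The count of 1 gene in the age test was 3 with no filter on low counts, 0 at a mean of at least 5 CPM, 0 with DESeq2 and 0 to 26 with 1 library left out. The median of the oligodendrocyte precursor list turned from -0.30 to 0.01 with the trend removed, and that of the histone list, a single gene at 0.22, to -1.17 at a minimum of 1 CPM. Calls lost without a single run were those of Dlx1 (log2 0.85), Gpr17 (-0.69), Itm2a (0.67), Slco1a4 (0.71), H2-Q4 (0.98), Itgb4 (-0.79), Klf9 (0.62), Mag (-0.62), Map2k2 (-0.68), Serping1 (0.67), Ttr (-0.62) and Tuba1c (0.58), and of Lhb (-2.14) and Hoxb6 (-3.52), whose levels then lay under 5 CPM. Of the 77 named genes with a trend-removed value, 23 lost their call with the trend removed, and the cause was not tested for any of these changes. There are no replicate mice with 1 library per age, and depth limits genes near 5 CPM.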

Other observations

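Other glial and vascular lists gave calls for few genes between 12 and 24 months in Csa-/- brain. The shares were 5.56% lower for astrocyte genes, 7.69% in each direction for oligodendrocyte precursor genes and 10.5% higher for endothelial genes. They rest on 1 or 2 genes each, against 1.95% higher and 3.25% lower over all genes. Of 18 measured astrocyte genes, 1 was called lower: Ntsr2, a neurotensin receptor, which stood at 114, 83.7 and 151 CPM in wild type and at 147, 148 and 71.6 CPM in Csa-/- at the 3 ages (fold 0.484, 0.458 to 0.513). Of 13 oligodendrocyte precursor genes, Lhfpl3 was called higher, at 46.1 and then 95.6 CPM (2.07, 1.91 to 2.25), and Gpr17, a receptor of cells about to make myelin, lower, at 37.4 and then 21.8 CPM (0.584, 0.524 to 0.652). Of 19 endothelial genes, Slco1a4, a transporter of the blood-brain barrier, and Itm2a were called higher, at folds of 1.67 and 1.66. Lhfpl3, Gpr17, Slco1a4 and Itm2a were not called with the length and GC trend removed (log2 0.66, -0.67, 0.38 and 0.43), and Ntsr2 was.

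Antioxidant genes split, with 2 of 26 called higher (7.69%) and 3 lower (11.5%), against 1.95% and 3.25% over all genes. Gclc, which catalyses the first step of glutathione synthesis, went from 67.4 to 114 CPM (1.68, 1.57 to 1.81; not called with the trend removed, log2 0.66), while Gsta4, a glutathione transferase that clears products of lipid peroxidation, went from 43.6 to 21.3 CPM (0.489, 0.440 to 0.543). Atf5, a transcription factor of the integrated stress response, was the only one called of 15 measured genes of that list, at 47.9 and then 20.3 CPM (0.424, 0.382 to 0.470), against 17.3 and then 42.7 CPM in wild type.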
